A study of Mus musculus with 6 samples.

Results

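The genes described here are 50 genes of protein kinases and their named partners, read by 64 probe sets, out of 5604 probe sets with a gene symbol and 45037 probe sets that are not controls. They were taken by symbol: Map4k, Map3k (without Map3k8), Map2k and Mapk, then Prk, Camk, Csnk, Dyrk and Rps6ka, and Stk, Cdk, Nek, Pak, Clk and Mark followed by a digit. The authors filled in a symbol only where their own unadjusted p for knockout against wild type was under 0.05, so the same contrast that is described below chose the members, and their differences are given as a description with no test. Probe sets of these genes that did not reach that limit carry no symbol and could not be looked up, and the nearest ones outside the limit cannot be given for the same reason. In the authors' deposited table the members just inside it were Csnk1g2, Map3k3 by probe set 1436522_at and Prkca, whose listed values were 0.049, 0.0476 and 0.0451.

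Expression was measured on 6 arrays, each of a different mouse mammary tumour cell line. Lines 31, 101 and 102 are labelled akt(+/+), here called wild type. Lines 72, 75 and 116 are labelled akt(-/-), here called knockout, and the series' title names the gene as Akt1. All 6 came from tumours of MMTV-ErbB2 mice, in which a viral promoter drives the ErbB2 receptor tyrosine kinase oncogene in mammary epithelium, and all were cultured with serum, insulin, hydrocortisone, EGF and cholera toxin. The labels give no strain or age and do not say whether each line is of a separate animal, a clone or a mixed culture, so any p-value measures the spread between these lines. Values are the authors' deposited log2 expression, differences are knockout minus wild type, and errors are SD over 3 lines. A log2 value of 1 probe set cannot be set against that of another as an amount of RNA.

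Akt1, the targeted kinase gene, checked the labels: its brighter probe set had a mean of 9.94 ± 0.20 over wild-type lines against 4.53 ± 0.13 over knockout lines (n = 3 each; limma, adjusted p = 0.000405). On the first principal component over all probe sets, the wild-type lines scored 16.3 to 61.5, knockout lines 72 and 116 scored -52.6 and -72.5, and knockout line 75 scored 8.08, close to the wild-type lines. Technical controls also differed with genotype. The bioC spike-in averaged 8.75 to 9.0 over the wild-type and 7.38 to 7.79 over the knockout arrays, and the 3′ minus 5′ gap of the Actb control probe sets was 2.88 to 3.29 against 3.44 to 3.53. Of the epithelial markers looked for, 4 of 9 carried a symbol, and keratin gene Krt8 was bright in both groups (12.41 ± 0.09 and 12.72 ± 0.12). The named epithelial markers differed in opposite directions: Krt8 by 0.31, Krt5 by 0.60 and Epcam by 0.80 upwards in the knockout lines, and the E-cadherin gene Cdh1 by -0.70. None of 8 fibroblast markers carried a symbol. The mean of the 3 named leukocyte markers (Cd8a, Laptm5, Coro1a) of 6 ranged from 6.30 to 6.57 over wild-type lines and from 6.08 to 6.34 over knockout lines. That mean joins opposite differences, 0.87 in Cd8a, -0.79 in Laptm5 and -0.69 in Coro1a. The sole named endothelial marker of 4 (Plvap) was 8.79 to 10.24 against 7.93 to 8.44, and the sole named adipocyte marker of 4 (Lipe) 5.86 to 5.98 against 5.18 to 5.44. None of these 9 named markers passed the adjusted threshold. The part of these controls and markers in the differences below was not tested.

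Protein kinases transfer phosphate from ATP to other proteins. The MAP kinases work in relays, in which a MAP4K can activate a MAP3K, the MAP3K phosphorylates a MAP2K, and the MAP2K phosphorylates a MAP kinase such as ERK, JNK or p38, often held together by scaffold proteins; ERK signalling lies downstream of ErbB2 alongside the Akt branch. AMPK senses low cellular energy, casein kinases are broadly acting kinases of Wnt, clock and survival signalling, and MARK kinases set cell polarity.

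Most of these kinase genes were lower in the knockout lines. Of the 64 probe sets, 46 (71.9%) were lower and 18 higher, with a median difference of -0.57 log2 units, whereas 53.7% of all 5604 probe sets with a symbol were lower, with a median of -0.27, and the median over all 45037 probe sets was 0.03. At the deposited limit itself stood 13.0% of all probe sets, 6.87% lower and 6.16% higher. The members at least 2-fold apart numbered 14 and every one of them was lower, led by Mark2, Stk39 and Mapk8ip1. Of all probe sets 3.6% were that far apart, 2.49% lower and 1.11% higher. Of the 5604 with a symbol 923 were, 746 lower and 177 higher. Among the members the largest difference upwards, 0.94 in Csnk1e, stayed under 2-fold. All 14 of those members also had an unadjusted limma p under 0.05. That combination was met by 2.8% of all probe sets, 2.14% lower and 0.668% higher, and by the same 923 with a symbol. The 2 groups of lines did not overlap in any of the 64 probe sets, against 21.9% of all probe sets (10.8% lower, 11.1% higher). The groups were also apart in 5601 of the 5604 probe sets with a symbol, so this follows largely from the naming. An unadjusted limma p under 0.05 was found in 55 members, against 15.4% of all probe sets (8.84% lower, 6.52% higher) and 4575 of the 5604 with a symbol. Because the members were chosen by the same contrast, nothing is read from these counts. After Benjamini-Hochberg adjustment over all probe sets 1 member passed in limma, a probe set of Csnk2a1 (adjusted p = 0.0482), where 0.107% of all probe sets passed (0.0977% lower, 0.00888% higher). By gene, 33 had every named probe set lower, 13 had every one higher, and 4 had probe sets in opposite directions.

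**Figure D1:**
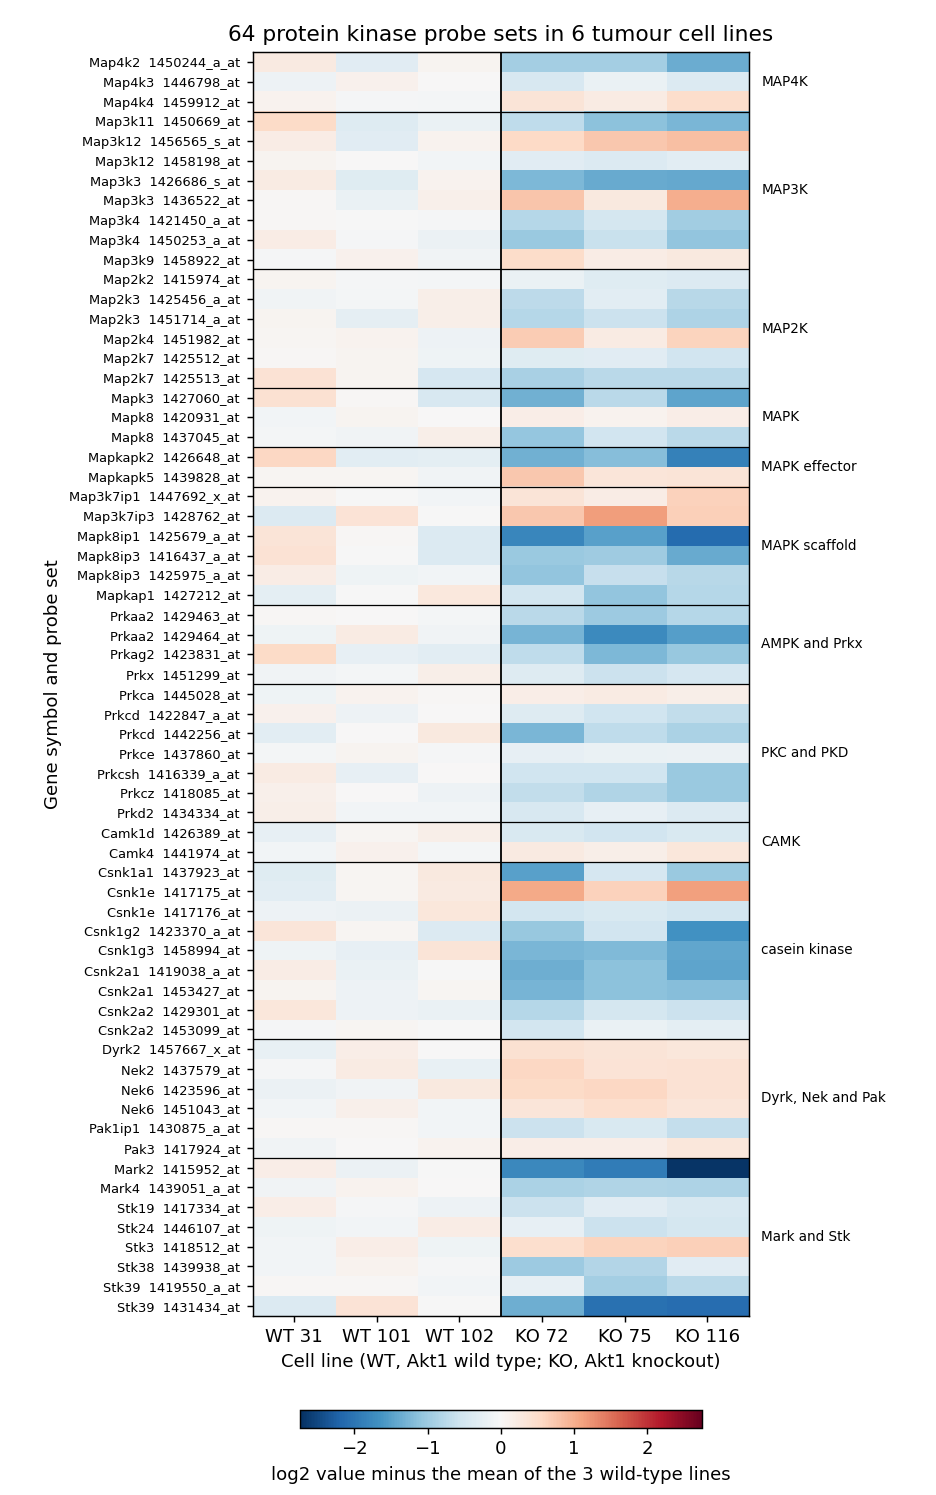
Each row is 1 of the 64 probe sets and each column 1 cell line. Rows are in the groups used in the text, some of which join several kinase families or hold partner proteins. Colour is the log2 value minus the mean of the 3 wild-type lines. Blue rows (46, lower in knockout) outnumber red rows (18), and the deepest blue lies in Mark2, Stk39 and Mapk8ip1.

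Promoter sequences of 4 members are shown because they cover the sole gene that passed, the gene of largest difference, an energy-sensing kinase lower by both probe sets and a mitotic kinase higher by both. Each is the 250 bases before a RefSeq transcription start in GRCm38.p6, written 5′ to 3′ in the direction of the gene, and capitals mark any of 6 motifs searched on both strands, whose letters are given with their shares.
Csnk2a1, chr2:152226590-152226839, plus strand: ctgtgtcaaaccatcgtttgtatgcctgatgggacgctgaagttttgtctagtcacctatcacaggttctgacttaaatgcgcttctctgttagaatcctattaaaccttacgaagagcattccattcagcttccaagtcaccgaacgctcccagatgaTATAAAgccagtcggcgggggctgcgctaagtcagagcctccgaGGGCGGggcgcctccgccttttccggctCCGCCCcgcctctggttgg
Mark2, the one of its windows that holds an ETS match, chr19:7295448-7295697, minus strand: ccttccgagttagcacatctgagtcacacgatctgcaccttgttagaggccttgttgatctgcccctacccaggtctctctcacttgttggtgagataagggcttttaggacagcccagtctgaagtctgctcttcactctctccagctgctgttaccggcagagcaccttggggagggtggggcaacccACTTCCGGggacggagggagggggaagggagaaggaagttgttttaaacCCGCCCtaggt
Prkaa2, chr4:105109899-105110148, minus strand: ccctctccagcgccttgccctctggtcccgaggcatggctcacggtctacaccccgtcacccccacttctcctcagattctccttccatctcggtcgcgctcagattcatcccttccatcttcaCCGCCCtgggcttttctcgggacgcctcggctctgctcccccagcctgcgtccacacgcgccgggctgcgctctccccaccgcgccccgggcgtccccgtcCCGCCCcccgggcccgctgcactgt
Nek6, the more upstream of its windows, chr2:38511447-38511696, plus strand: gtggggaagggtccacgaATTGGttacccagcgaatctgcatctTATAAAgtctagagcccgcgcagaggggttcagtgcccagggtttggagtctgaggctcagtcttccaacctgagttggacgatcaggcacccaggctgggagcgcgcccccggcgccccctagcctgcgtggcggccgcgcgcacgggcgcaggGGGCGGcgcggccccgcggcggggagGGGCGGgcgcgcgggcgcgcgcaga
In the Csnk2a1 stretch the capitals are a TATA box match starting at base 160, counted from 1 at the 5′ end, and GC box letters starting at bases 204 and 232. Mark2 holds the ETS letters on the reverse strand at base 191 and a GC box match at base 240, and Prkaa2 holds GC box letters at bases 125 and 226. Nek6 holds a CCAAT box match on the reverse strand at base 19, TATA box letters at base 45 and GC box letters at bases 200 and 226. Over windows running from 250 bases before to 50 after the start, which existed for 36 member genes and some of which overlap, the GC box, GGGCGG, was present in 40 of 56 (71.4%), against 35.7% of 32851 windows of all genes. The ETS motif searched, CCGGAAGT, bound by factors many of which are ERK targets, was present in 4 of 56 (7.14%, against 3.89%). The cAMP response element TGACGTCA was present in 2 (3.57%, against 1.79%). The motif of FoxO factors, which Akt keeps in the cytoplasm, was searched as GTAAACA and found in 2 (3.57%, against 3.65%), both of them overlapping windows of Mapkap1 that hold the same single site. The letters CCAAT occurred in 17 windows (30.4%, against 37.4%). The letters TATAAA occurred in 4 (7.14%, against 13.6%). The windows of the kinase genes had a median G+C content of 63.5%, against 52.7% for all windows, which include those of non-coding genes. These matches are a description of letters and were not tested.

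At the top of the MAP kinase relay, the STE20-type kinase genes Map4k2, Map4k3 and Map4k4 were each read by 1 named probe set. Map4k2, an activator of the JNK branch, read 6.21, 5.64 and 6.04 in wild-type lines 31, 101 and 102 and 5.03, 5.03 and 4.61 in knockout lines 72, 75 and 116. The mean of the knockout lines was 2.11-fold lower (a difference of -1.08). Map4k3 (-0.33) and Map4k4 (0.36 higher) were dim: at mean levels of 3.03 and 2.25 they lay under the lower quartile of all probe sets, 3.80.

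Among the MAP3K genes, 5 of 8 probe sets were lower. Map3k11, which encodes the mixed-lineage kinase MLK3, read 8.41, 7.54 and 7.70 in the wild-type lines and 7.18, 6.76 and 6.62 in the knockout lines. Its highest value was that of wild-type line 31, and the groups were 0.36 log2 units apart at their nearest points (difference -1.03, 2.04-fold lower). The MEKK4 gene Map3k4 was lower by both of its probe sets, 8.92 ± 0.04 against 8.18 ± 0.23 in the brighter and 7.93 ± 0.19 against 7.04 ± 0.26 in the other. In both, knockout line 75 was the knockout line nearest the wild type. Map3k9, the MLK1 gene, was 0.33 higher but dim (mean level 2.84).

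The probe sets of 2 further MAP3K genes disagreed. For Map3k3, which encodes MEKK3, probe set 1426686_s_at read 8.53, 7.96 and 8.40 in the wild-type lines and 7.06, 6.91 and 6.89 in the knockout lines, a difference of -1.35. Probe set 1436522_at of the same gene read 7.80, 7.58 and 7.91 in the wild-type lines and 8.52, 8.03 and 8.77 in the knockout lines, a difference of 0.67. The 2 probe sets pointed in opposite directions, and the mean of both differed by -0.34. Map3k12, the gene of the dual leucine zipper kinase DLK, was 0.71 higher by probe set 1456565_s_at (6.22 ± 0.28 against 6.93 ± 0.14) and differed by -0.33 by the very dim 1458198_at (2.53 ± 0.08 against 2.20 ± 0.05). The array design is not given in the labels. On Affymetrix arrays, whose probe set names have this form, the ending _s_at marks probes shared by several transcripts. Those transcripts may come from different genes, and 2 of the 64 probe sets carry this ending. The names of 2 others, those of Map3k7ip1 and Dyrk2, end in _x_at, which marks probes that may bind unrelated sequences.

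In the MAP2K layer 5 of 6 probe sets were lower and none differed 2-fold. Map2k3, whose product MKK3 activates p38, read 9.87, 9.55 and 9.97 in the wild-type lines and 9.02, 9.20 and 8.95 in the knockout lines by its brighter probe set. The difference of -0.74 was matched in direction by the other probe set (-0.59). Map2k7, encoding the JNK activator MKK7, differed by -0.40 and -0.79 in its probe sets; in the latter, wild-type line 102 (5.88) was the nearest to the knockout lines (5.46 to 5.6). The MEK2 gene Map2k2, an ERK activator, was bright and only slightly lower, 9.56 ± 0.07 against 9.26 ± 0.11. Map2k4, whose product MKK4 activates JNK and p38, went the other way and was 0.51 higher, 8.16 ± 0.13 against 8.67 ± 0.25.

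Of the MAP kinases themselves, Mapk3 and Mapk8 were named. Mapk3, the ERK1 gene, read 10.89, 10.51 and 10.04 in wild-type lines 31, 101 and 102 and 9.15, 9.73 and 9.02 in knockout lines 72, 75 and 116. Its 2.26-fold lower mean rested on groups that came within 0.31 log2 units of each other, at wild-type line 102 and knockout line 75. Mapk8, the JNK1 gene, was lower by probe set 1437045_at (7.05 ± 0.14 against 6.27 ± 0.27) and 0.15 higher by the dim 1420931_at (4.03 ± 0.08 against 4.19 ± 0.04). In the latter the limma standard error of the difference was 0.12, and the nearest lines of the 2 groups lay 0.03 log2 units apart.

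The kinases that MAP kinases activate were split. Mapkapk2, which encodes the p38 target MK2, read 9.36, 8.49 and 8.51 in the wild-type lines and 7.47, 7.62 and 6.93 in the knockout lines. The mean of the knockout lines was 2.72-fold lower, with line 31 the highest and line 116 the lowest of all lines. Mapkapk5, the gene of the related kinase MK5, was 0.47 higher, 5.42 ± 0.08 against 5.90 ± 0.24. No probe set of the ribosomal S6 kinase genes (Rps6ka) carried a symbol.

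Scaffolds and partners of the relay included the third largest gene difference of all members. Mapk8ip1, the gene of the JNK scaffold JIP1, read 7.60, 7.27 and 6.87 in the wild-type lines and 5.45, 5.75 and 5.13 in the knockout lines. The groups were 1.11 log2 units apart at their nearest points, and the mean was 3.48-fold lower. Mapk8ip3, encoding JIP3, which also ties cargo to kinesin motors, was lower by both probe sets, by 5.71 ± 0.39 against 4.57 ± 0.23 in one and 7.73 ± 0.17 against 6.90 ± 0.23 in the other. In contrast, the genes of the TAK1-binding partners that carried a symbol were higher. Map3k7ip3 (now Tab3) read 7.69, 8.44 and 8.06 in the wild-type lines and 8.80, 9.20 and 8.72 in the knockout lines. Map3k7ip1 (now Tab1) was 0.40 higher, by a dim probe set whose name ends in _x_at. Mapkap1, whose product SIN1 is a subunit of mTORC2, the complex that phosphorylates Akt, differed by -0.79 (8.59 ± 0.28 against 7.80 ± 0.29).

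**Figure D2:**
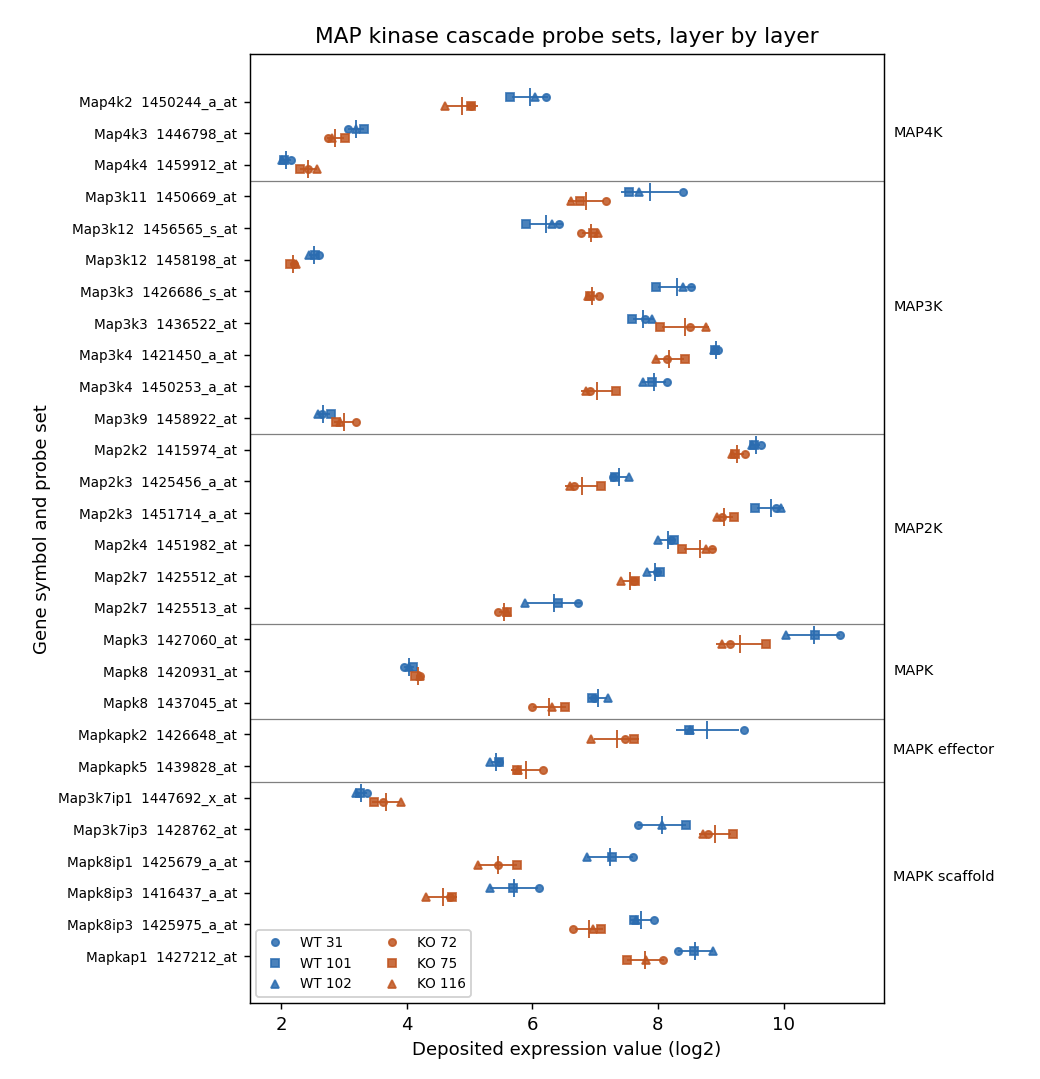
The horizontal axis is the deposited log2 value, and points are single lines. Rows are the 28 probe sets grouped with the MAP kinase relay, by layer and then scaffolds and partners. They include Mapkap1, whose product is a subunit of mTORC2. The tick and bar are the mean and SD of 3 lines. In 19 rows the knockout lines (orange) lie to the left of the wild-type lines (blue) and in 9 to the right, with the widest gap in Mapk8ip1.

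Other genes of the ERK, JNK and p38 pathways were counted from a list of 34. Of these, 12 carried a symbol, 8 lower and 4 higher by their brightest probe set, with a median difference of -0.68, and 0 passed over all probe sets in limma or in the two-sample test, with 12 at an unadjusted limma p under 0.05, which follows largely from the naming. The following were singled out after their values were seen. Braf, whose product phosphorylates the ERK-activating MAP2Ks, was lower by both probe sets (-0.69 and -1.17). Spred2, the gene of an inhibitor of the ERK pathway, was lower by both (-1.07 and -0.70). Dusp5, a nuclear ERK phosphatase gene, averaged 8.81 ± 0.20 against 7.43 ± 0.18. Both activating and inhibiting genes of the pathway were among the lower ones.

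The genes of both named AMPK subunits were lower. Prkaa2, the alpha 2 catalytic subunit gene, read 4.58, 4.92 and 4.60 in the wild-type lines and 3.43, 2.96 and 3.18 in the knockout lines by probe set 1429464_at, a 2.85-fold lower mean. Its brighter probe set 1429463_at read 6.91, 6.87 and 6.82 against 6.13, 5.87 and 6.08. In both, line 75 was the lowest. Probe set 1429464_at is dim in the knockout lines, where its values lie under the lower quartile of the arrays. Prkag2, the gamma 2 nucleotide-binding subunit gene, averaged 7.08 ± 0.46 against 6.10 ± 0.28, with wild-type line 31 highest at 7.61. Prkx, the gene of a relative of the cAMP-dependent kinase, was 0.47 log2 units apart in the same direction, 7.82 ± 0.14 against 7.35 ± 0.12. All 4 probe sets of this group were lower. From a list of 27 partners of cAMP, calcium and AMPK signalling, 5 carried a symbol, 3 lower and 2 higher, with a median of -0.62. In limma or the two-sample test 0 passed. An unadjusted limma p under 0.05 was found in 3, against 4575 of the 5604 probe sets with a symbol, which follows largely from the naming.

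Of the 7 probe sets grouped by symbol with protein kinase C and D, 6 were lower, none by 2-fold. The lower ones include that of Prkcsh, whose product is not a kinase. Prkcz, an atypical protein kinase C that acts in epithelial polarity, read 8.61, 8.48 and 8.32 in the wild-type lines and 7.79, 7.65 and 7.44 in the knockout lines. The groups were 0.54 log2 units apart, and the difference was -0.84. Prkcd was lower by both probe sets, -0.53 in 1422847_a_at (8.55 ± 0.14 against 8.02 ± 0.17) and -0.94 in 1442256_at (7.58 ± 0.27 against 6.64 ± 0.28). Prkcsh, which despite its symbol encodes the beta subunit of glucosidase II, a glycoprotein-trimming enzyme of the endoplasmic reticulum, averaged 9.98 ± 0.23 against 9.27 ± 0.28, and Prkd2 differed by -0.34. The probe sets of Prkca (0.19 higher) and Prkce (-0.19) were among the dimmest of all members, at mean levels of 3.15 and 1.95. The calcium/calmodulin kinase genes Camk1d (-0.45) and Camk4 (0.24 higher) were dim as well, at 3.44 and 3.26.

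Casein kinase genes held 4 of the 14 probe sets that differed 2-fold, and 8 of their 9 probe sets were lower. Csnk2a1, the catalytic alpha subunit of CK2, a constitutively active kinase, read 6.88, 6.65 and 6.86 in the wild-type lines and 5.52, 5.67 and 5.62 in the knockout lines by probe set 1453427_at. Its other probe set, 1419038_a_at, read 6.83, 6.45 and 6.62 against 5.28, 5.50 and 5.19, so that the lines of each group lay close together and the groups about 1 log2 unit apart in both, with differences of -1.19 and -1.31. The former is the member that passed, and the call was narrow: it ended with median centring, quantile normalization, an intensity trend or the two-sample test, with dim probe sets left out (adjusted p = 0.064 in limma), and without any single line other than knockout line 75 (limma, adjusted p = 0.146 to 0.184). Csnk2a2, encoding alpha prime, differed by -0.62 and -0.32 in its probe sets.

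Within the CK1 family, Csnk1g3 read 5.39, 5.27 and 5.85 in the wild-type lines and 4.24, 4.29 and 4.07 in the knockout lines, a 2.47-fold lower mean with no knockout line near a wild-type one. Csnk1g2 read 9.20, 8.92 and 8.5 against 7.83, 8.34 and 7.21, so that line 75 came within 0.16 of the lowest wild-type line. Csnk1a1, whose product marks beta-catenin for destruction, read 7.14, 7.52 and 7.73 against 5.97, 7.0 and 6.45, again with line 75 close. Csnk1e, a kinase of the circadian clock and of Wnt signalling, had probe sets that disagreed. Probe set 1417175_at read 7.35, 7.71 and 7.88 in the wild-type lines and 8.70, 8.29 and 8.78 in the knockout lines, 0.94 higher and the largest difference upwards among all members. Probe set 1417176_at, brighter, averaged 9.90 ± 0.27 against 9.43 ± 0.05, and the mean of both was 0.23 higher.

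**Figure D3:**
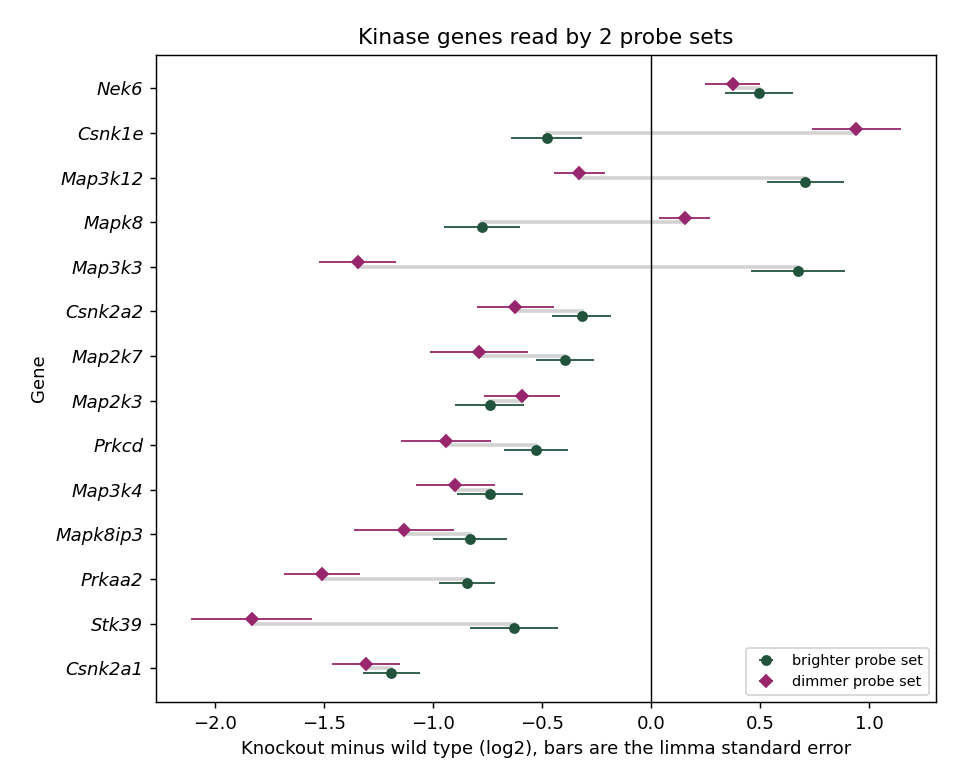
The horizontal axis is the log2 difference, knockout minus wild type, with the limma standard error as bars, for the 14 genes read by 2 named probe sets; circles are the brighter and diamonds the dimmer probe set. In 10 genes both lie on the same side of 0 and in 4 (Csnk1e, Map3k12, Mapk8, Map3k3) they lie on opposite sides.

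Mark2 showed the largest difference of any member. It encodes PAR-1b, a kinase that phosphorylates microtubule-associated proteins and keeps apical and basal domains apart, and read 9.56, 9.21 and 9.36 in the wild-type lines and 7.60, 7.46 and 6.68 in the knockout lines. The nearest lines of the 2 groups were 1.61 log2 units apart, and the mean was 4.38-fold lower (difference -2.13, adjusted p = 0.0538 in limma, which does not pass). Its relative Mark4 read 5.04, 5.24 and 5.14 against 4.27, 4.32 and 4.28, with hardly any spread among the knockout lines (SD 0.03).

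The STE20 and NDR kinases named Stk went mostly the same way. Stk39, the gene of SPAK, which regulates cation-chloride cotransporters, read 6.25, 7.0 and 6.60 in the wild-type lines and 5.26, 4.57 and 4.51 in the knockout lines by probe set 1431434_at, a 3.56-fold lower mean. Its brighter probe set 1419550_a_at averaged 10.45 ± 0.07 against 9.82 ± 0.37, a difference of -0.63, so both were lower but by unequal amounts. Knockout line 72 (10.23) lay close to the wild-type lines there. Stk38, encoding NDR1, averaged 6.45 ± 0.09 against 5.74 ± 0.36, with knockout line 116 nearest the wild type, and Stk19, whose product is disputed as a kinase, and Stk24, the MST3 gene, differed by -0.45 and -0.43. Stk3, which encodes the Hippo pathway kinase MST2, was the exception and read 8.73, 8.99 and 8.69 in the wild-type lines and 9.28, 9.41 and 9.46 in the knockout lines. The mean of the knockout lines was 1.49-fold higher.

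The Dyrk, Nek and Pak genes formed the group that was mostly higher, 5 of 6 probe sets, with no 2-fold difference among them. Nek6, a mitotic spindle kinase gene, was higher by both probe sets and read 8.08, 8.15 and 8.51 in the wild-type lines and 8.76, 8.83 and 8.64 in the knockout lines by the brighter one. Wild-type line 102 came within 0.13 log2 units of the knockout lines. Its other probe set was dim and 0.37 higher (3.70 ± 0.11 against 4.07 ± 0.07). Nek2, a kinase gene of centrosome separation, Dyrk2 and Pak3, a Rac and Cdc42 effector, were 0.45, 0.36 and 0.23 higher, all at mean levels under 4.5, where the median probe set lies at 5.46. Pak1ip1, the gene of a PAK1-binding protein, was the one lower member, 8.27 ± 0.06 against 7.72 ± 0.12. No cyclin-dependent kinase gene with a Cdk symbol and no Clk gene carried a symbol. Of 30 cyclins, Cdk inhibitors and their regulators, 15 did, 8 lower and 7 higher with a median of -0.20. In limma or the two-sample test 0 passed. An unadjusted limma p under 0.05 was found in 14, against 4575 of the 5604 probe sets with a symbol, which follows largely from the naming. By brightest probe set the differences ran from -1.32 in Ccnk to 0.96 in Rb1, both named after their values were seen.

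Higher members were split by level, 10 below the median level of all probe sets and 8 at or above it. Of the 44 members at or above the median level of all probe sets, 8 (18.2%) were higher in the knockout lines, against 40.9% of the other bright probe sets with a symbol. Of the 20 members below it, 10 (50.0%) were higher, against 55.1% of the other dim ones. The 18 higher members had a median level of 4.28 and the 46 lower ones of 7.21. As the members were chosen by this same contrast, these shares and levels are a description and were not tested. The 3 brightest members were Stk39, Mapk3 and Csnk1e probe set 1417176_at, all lower, and the dimmest were Prkce, Map4k4 and Map3k12 probe set 1458198_at, whose highest value in any line was 2.60, where the lowest value on the arrays was 1.62. In bulk RNA of a whole culture, fewer cells of a type and less RNA per cell cannot be told apart.

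**Figure D4:**
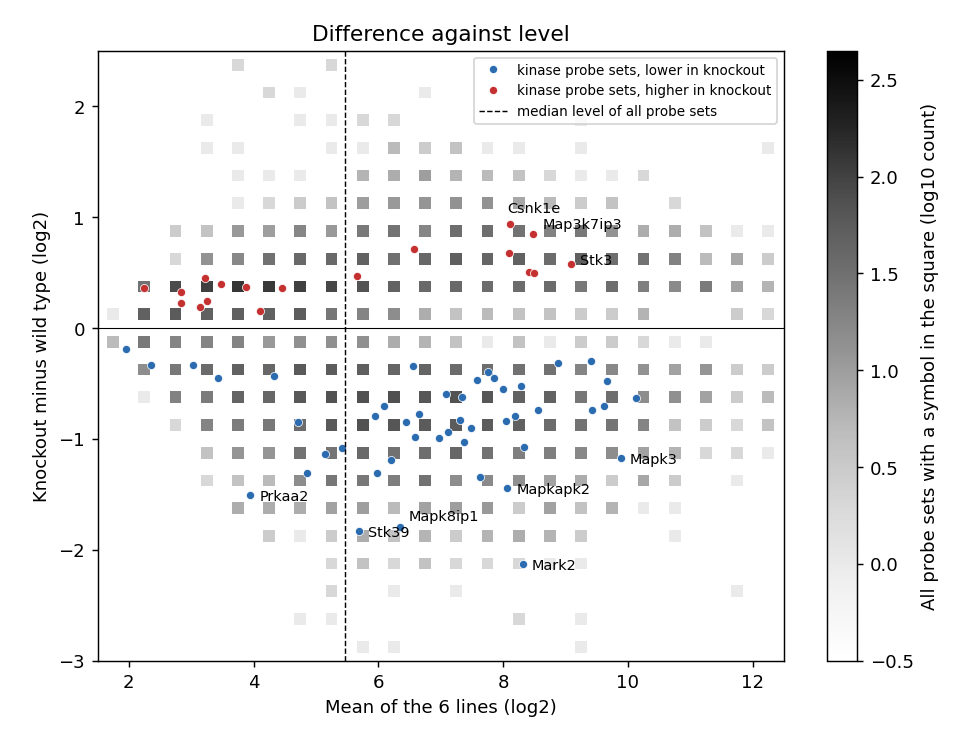
The horizontal axis is the mean log2 value of the 6 lines and the vertical axis the log2 difference, knockout minus wild type. Grey squares count all 5604 probe sets with a symbol (axis limits leave out the most extreme), points are the 64 members, and the dashed line is the median level of 5.46. To the right of it 36 of 44 members lie below 0.

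The lines contributed unequally. Over the 46 lower members the median difference from the wild-type mean was -0.78 in line 72, -0.62 in line 75 and -0.82 in line 116. Line 75 was the knockout line nearest the wild type in 27 of the 46 (58.7%), against 50.4% of the other lower probe sets with a symbol, and line 116 in 4 (8.7%, against 20.7%). Wild-type line 31 was the highest wild-type line in 26 (56.5%, against 42.4%). Without line 75, 5 members passed in limma in place of 1: both probe sets of Csnk2a1, Mapk8ip1, Mark2 and Prkaa2 probe set 1429464_at, with adjusted p of 0.0463 to 0.0479, while 327 probe sets passed in all. Without any other single line 0 did.

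In the authors' deposited table of KEGG pathways 3 of these genes are listed, with signed folds of -2.26 for Mapk3, -2.28 for Csnk2a1 and -2.85 for Prkaa2. The authors' deposited table places Mapk3 in 7 pathways, among them focal adhesion (pathway p = 0.0011), Csnk2a1 in 3, among them tight junction (0.00032), and Prkaa2 in 2, adipocytokine signalling (0.00831) and mTOR signalling (0.0341). The signed folds are those of the probe sets given above, and for Csnk2a1 and Prkaa2 the table gives 1 of the 2.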

How the data were processed

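Biotin-labelled cDNA, amplified from total RNA with a whole-transcript kit per the labels' protocols, was hybridised to 1 array per line. The authors deposited log2 expression values per probe set; how they were summarised and normalized was not given in the sources used here. Array medians of 5.41 to 5.50 show a common scale, and the deposited workbook and value table agree to within 5e-09. The authors also deposited an unadjusted p-value per probe set, a log2 difference, a B score and, in a pathway sheet, a signed fold score. All 45037 probe sets that are not controls entered 1 linear model without covariates (knockout minus wild type; limma 3.58.1, R 4.3.3), with p-values adjusted by Benjamini-Hochberg and a threshold of 0.05; the fit was tested on simulated data. The number of arrays, 3 per group, limits precision (median standard error 0.18 log2 units).

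The members, the gene lists and the rule for naming were chosen with earlier results of these data known. The rule names, per kinase group, up to 5 probe sets of largest difference, every probe set that passed, every gene with several probe sets, the 3 nearest the deposited limit and the 3 brightest and dimmest; the other 7 are named to account for every member. Symbols were checked against RefSeq GRCm38.p6, where 48 of 50 are current and 2 match a synonym. Promoters are RefSeq's. Unnamed probe sets of the same genes were planned and are not analysed here, since no probe annotation was at hand.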

Additional observations from a re-analysis of the deposited data

How the results depend on the processing

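The 57 probe sets that the naming rule picks (41 with the dim filter) kept their direction under each alternative run on probe sets: median centring, quantile normalization, a filter on dim probe sets, an intensity trend, the value table, the two-sample test and each line left out. Leaving lines out gave 46 lower members each time, a median difference of -0.60 to -0.50 and 0 to 5 calls, 5 without knockout line 75. The single call in limma became 0 with median centring, quantile normalization, the dim filter, the two-sample test and with the probe sets of each gene averaged; with the intensity trend it stayed 1, but of Prkaa2 (adjusted p = 0.0439) in place of Csnk2a1 (0.0592). The median difference of -0.57 moved to -0.72 over the 44 brighter members and to -0.47 over 50 genes. Averaging a gene's probe sets gave 0.19 for Map3k12, -0.34 for Map3k3, -0.31 for Mapk8 and 0.23 for Csnk1e, which turns 1 probe set of each; the averaging itself is the cause. No paired analysis was possible because the 2 genotypes share no line number. Low signal limits what can be said of the 11 members under the lower quartile of level: Map4k3, Map4k4, Map3k9, Map3k12 probe set 1458198_at, Map3k7ip1, Prkca, Prkce, Camk1d, Camk4, Nek2 and Pak3.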
